A study of Caenorhabditis elegans with 2 samples.

Results

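This account covers the noncoding RNA genes of Caenorhabditis elegans that lie away from tRNA and snoRNA genes, and the binding of the tagged transcription factor GMEB-2 at them. The genes were the nuclear genes of biotype ncRNA in the Ensembl annotation of WBcel235 (the ce11 assembly) with no tRNA or snoRNA gene body within 500 bp. Symbols starting rpr-, mrpr- or srpr- (the RNase P, RNase MRP and signal recognition particle RNAs) were left out. Of 7764 nuclear ncRNA genes, 7265 met the rule, 492 were left out for a tRNA or snoRNA neighbour and 7 for their symbol. The annotation holds 46890 nuclear genes in all. The 7265 genes are mostly short, with a median body of 141 bases, and all but 6 carry only a sequence name. A body overlapped the promoter window of a protein-coding gene, taken from 1000 bp upstream to 500 bp downstream of an annotated 5′ end, for 2037 of them and did not for 5228.

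GMEB-2 is the worm counterpart of vertebrate GMEB proteins, which bind the glucocorticoid modulatory element. It was tagged at its C-terminus with GFP-FLAG, expressed from the integrated transgene wgIs622 in strain OP622, which also carries unc-119(tm4063), and precipitated with an antibody to GFP. Mixed-sex late embryos were used whole, 5 h after synchronization by egg bleaching, in 2 biological replicates of 1 group, with no second condition. The transgene gives no cell type, and signal from all cells of the embryo is summed. Values are the authors' signal values for called peaks, and read depth is unknown. The main list, thresholded by irreproducible discovery rate (IDR, a measure of agreement between replicates), holds the strongest peaks of a joint relaxed list of 30000, down to the one before rank 635. Each replicate also has its own relaxed list of 30000. Every list has its own signal scale, so signals were compared within a list and ranks (1 is strongest) were given beside them. Intervals for shares are 95% exact Clopper-Pearson intervals over genes. These intervals count genes as if each had its own peak, which was often not so.

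The ncRNA biotype collects transcripts of unlike kinds. Small stable RNAs of eukaryotes are made by RNA polymerase II or by RNA polymerase III. Genes of the tRNA type carry promoter elements inside the transcribed part, among them the B box, which TFIIIC binds to bring in RNA polymerase III. Other small RNA genes, such as those of spliced leader RNAs and spliceosomal RNAs, have their promoter elements upstream. The sequences below show kinds of element found at some of the peaks, with relatives that had weaker peaks or none. They are from the ce11 genome sequence in RefSeq. The words and families were chosen with values of these data known.

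The first set carries the B box word GTTCNANNC, shown in capitals on the gene's own strand. F36H1.17 (chrIV:11026131-11026219, minus strand) and T28D6.15 (chrIII:11371304-11371489, minus strand) share no matching stretch with each other. C14F11.14 (chrX:6207835-6207981, plus strand), T22B2.12 (chrX:3914418-3914527, minus strand), ZK816.9 (chrX:3348045-3348101, plus strand) and K02D3.5 (chrX:13697692-13697788, plus strand) belong to 1 repeated sequence family. The annotated body of ZK816.9 ends inside the word.
F36H1.17: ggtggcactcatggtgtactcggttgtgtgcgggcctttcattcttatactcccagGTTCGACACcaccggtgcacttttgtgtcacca
T28D6.15: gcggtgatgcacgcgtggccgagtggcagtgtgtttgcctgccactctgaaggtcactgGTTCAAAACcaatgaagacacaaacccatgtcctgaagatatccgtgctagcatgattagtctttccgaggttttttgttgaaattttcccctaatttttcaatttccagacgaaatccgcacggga
C14F11.14: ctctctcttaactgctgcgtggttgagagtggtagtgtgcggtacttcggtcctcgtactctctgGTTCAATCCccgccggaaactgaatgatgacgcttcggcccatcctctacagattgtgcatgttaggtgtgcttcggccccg
T22B2.12: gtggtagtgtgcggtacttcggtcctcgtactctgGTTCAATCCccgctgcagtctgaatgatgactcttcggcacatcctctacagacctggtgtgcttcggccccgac
ZK816.9: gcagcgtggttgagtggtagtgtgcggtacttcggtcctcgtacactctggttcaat
K02D3.5: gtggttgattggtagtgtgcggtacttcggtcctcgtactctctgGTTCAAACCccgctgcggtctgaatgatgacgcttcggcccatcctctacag

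The second set holds short RNAs in which GGGTTA lies near the 5′ end and CTTGAC near the 3′ end, both in capitals. W01D2.7 (chrII:14804502-14804559, plus strand) and W01D2.9 (chrII:14804795-14804876, plus strand) lie beside each other. F08G2.13 (chrII:13834449-13834523, minus strand) and C18C4.17 (chrV:5576222-5576373, plus strand) also have an IDR summit. F08G2.12 (chrII:13834887-13834954, minus strand) and M163.12 (chrX:14477545-14477622, plus strand) have none in any list.
W01D2.7: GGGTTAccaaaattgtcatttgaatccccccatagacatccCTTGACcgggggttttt
W01D2.9: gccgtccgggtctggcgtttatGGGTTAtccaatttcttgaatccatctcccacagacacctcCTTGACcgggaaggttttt
F08G2.13: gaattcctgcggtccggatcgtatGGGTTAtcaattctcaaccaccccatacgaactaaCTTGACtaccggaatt
C18C4.17: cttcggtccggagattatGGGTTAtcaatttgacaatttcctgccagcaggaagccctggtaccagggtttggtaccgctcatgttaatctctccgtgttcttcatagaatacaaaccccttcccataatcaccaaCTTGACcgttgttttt
F08G2.12: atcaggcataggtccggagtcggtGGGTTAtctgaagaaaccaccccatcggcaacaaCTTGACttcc
M163.12: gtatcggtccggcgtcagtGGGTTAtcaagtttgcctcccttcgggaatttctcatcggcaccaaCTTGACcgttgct

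The third pair shows 100 bp on each side of a summit, plus strand. At the peak shared by 3 genes of the clone Y37A1B (WBGene00195705, WBGene00198933 and WBGene00199919, chrIV:14033915-14034115) the capitals mark the bases inside the annotated gene of the microRNA mir-52. At the peak of Y55B1BR.7 (chrIII:445667-445867) the capitals mark a tandem repeat of 2 bases.
WBGene00199919: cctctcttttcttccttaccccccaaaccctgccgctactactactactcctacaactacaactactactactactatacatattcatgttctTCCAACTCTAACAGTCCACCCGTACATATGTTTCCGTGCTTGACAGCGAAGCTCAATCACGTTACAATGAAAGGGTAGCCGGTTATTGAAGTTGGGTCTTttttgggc
Y55B1BR.7: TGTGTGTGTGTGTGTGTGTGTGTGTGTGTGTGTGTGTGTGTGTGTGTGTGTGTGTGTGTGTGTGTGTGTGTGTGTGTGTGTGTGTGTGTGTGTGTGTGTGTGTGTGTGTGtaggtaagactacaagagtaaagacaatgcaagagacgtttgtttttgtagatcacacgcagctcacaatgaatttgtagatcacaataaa

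Few of the 7265 genes had a strong peak. A summit of the IDR list lay within 200 bp of the body of 93 genes (1.28%, 1.03% to 1.57%), against 2.03% of all 46890 nuclear genes. Without the 15363 piRNA genes, which are very short, that background was 3.0%. The share was 2.26% (46 of 2037, 1.66% to 3.0%) for genes in a protein-coding promoter and 0.899% (47 of 5228, 0.661% to 1.19%) for the rest. Of protein-coding genes, 2.11% (1.92% to 2.32%) had an IDR summit. Their bodies are longer, and they were not selected by promoter window or by distance from tRNA and snoRNA genes. The ncRNA genes left out for a tRNA or snoRNA neighbour had a summit in 151 of 492 (30.7%, 26.6% to 35.0%), close to the 32.8% (29.1% to 36.7%) of tRNA genes themselves. SnoRNA genes had one in 15.0% and microRNA genes in 1.92%.

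**Figure D1:**
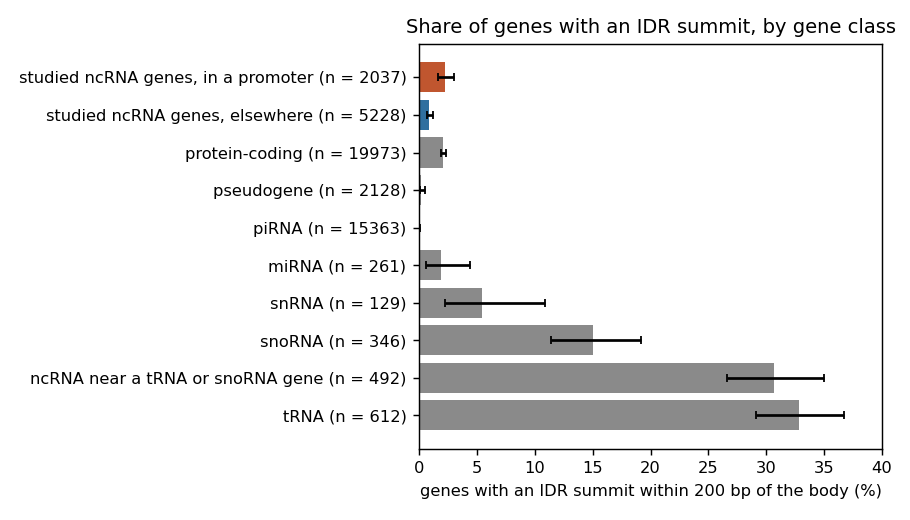
Share of genes in percent with an IDR summit within 200 bp of the body, by gene class; lines are 95% exact intervals over genes and n is the number of genes. The studied ncRNA genes lie at 2.26% in promoters and 0.899% elsewhere, and tRNA genes at 32.8%.

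In the relaxed lists, which also hold the stronger peaks, these genes had shares near those of all nuclear genes. A summit of the joint relaxed list lay within 200 bp of 2429 genes (33.4%), against 30.5% of all nuclear genes. The share was 44.4% for nuclear genes that are not piRNA genes and 50.2% for protein-coding genes. Protein-coding bodies are longer, with a median of 2027 bases against 141, so their windows are wider. The replicate 1 list gave 2202 genes (30.3%), with 31.6% of all nuclear genes as background, and the replicate 2 list 2351 genes (32.4%), with 31.5%. Both replicate lists held a summit for 1211 genes (16.7%). A further group of 1057 genes had a summit in a replicate list and none in the joint list, and 3779 genes (52.0%) had none in any of the 4 lists. Among the strongest peaks of both replicates, taking from each as many as the IDR list holds, there were 56 genes (0.771%), against 1.48% of all nuclear genes, and 55 of the 56 were among the 93. Like those for the relaxed lists, that background includes tRNA and snoRNA genes and the ncRNA genes near them.

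Windows of 200 bp around the 7265 bodies cover 3.24% of the genome. They held 63 IDR summits (9.94% of the list), and 15.9% of the IDR summits away from tRNA, snoRNA, rpr-, mrpr- and srpr- genes. The share was 13.7% for joint ranks 635 to 2000, 10.2% for ranks 2001 to 5000, and then fell to 6.94%, 5.99% and 5.30% for ranks 5001 to 10000, 10001 to 20000 and 20001 to 30000. It was above the share of the genome in every range. Genes outside promoters had 5.21% in the IDR list and 8.86% in ranks 635 to 2000, and genes in promoters 4.73% and 4.9%. These shares count tRNA and snoRNA peaks in the totals. Without those peaks the share of all studied genes in ranks 635 to 2000 was 14.5%. Genes outside promoters then had 8.33% in the IDR list and 9.39% in ranks 635 to 2000, and genes in promoters 7.58% and 5.2%.

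**Figure D2:**
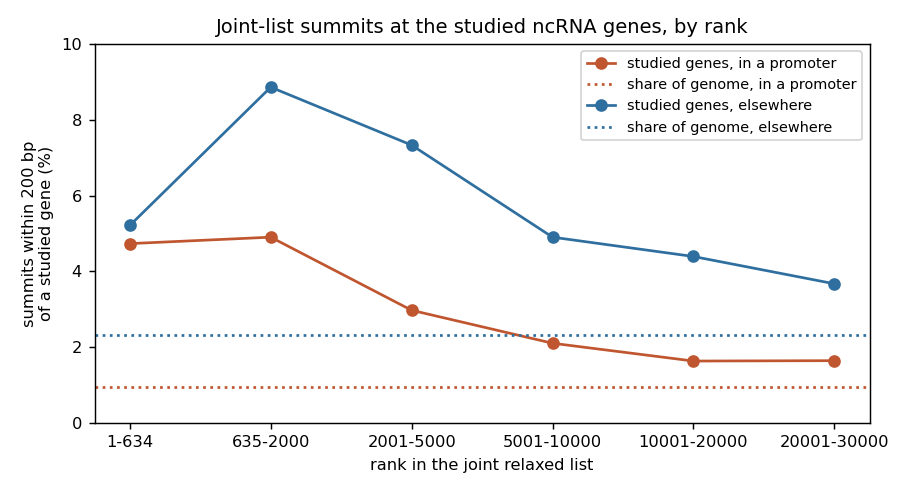
Share in percent of joint-list summits within 200 bp of a studied ncRNA gene, by rank range, for genes in and outside protein-coding promoters; dotted lines give the share of the genome within the same windows (0.938% and 2.32%). Genes outside promoters reach 8.86% in ranks 635 to 2000, and both curves stay above their dotted lines. Summits at tRNA and snoRNA genes are counted in the totals.

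The 93 genes shared 63 distinct peaks. One gene lay at 39 peaks, 2 at 19, 3 at 4 and 4 at 1 peak, and 21 peaks had genes on both strands, so that the gene a peak belongs to cannot be told from these lists. At 30 peaks the genes and the summit lay in a protein-coding promoter, and at 33 neither did. Summits were intergenic at 44 peaks, intronic at 18 and in a 5′ UTR at 1. The median signal was 116, against 118 for the 327 remaining IDR peaks away from tRNA and snoRNA genes, 163 for those at tRNA genes and 294 for those at snoRNA genes. In promoters the median was 142 and elsewhere 110, beside 123 and 111 for the remaining peaks. The median GC content of the windows, 100 bp to each side of the summit, was 49.3%, against 42.8% for the remaining peaks.

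The position of the summit along a gene is bounded by the rule, which takes summits within 200 bp of the body. The summit was inside the body for 48 of the 93 genes, upstream for 21 and downstream for 24. Their median position lay 57 bp past the annotated 5′ end, with quartiles at 9 and 171 bp. For the 39 genes that had a peak to themselves, it was 64 bp. A distance of this size is less than the usual peak width of 376 bp, so upstream and internal positions are separated only coarsely.

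**Figure D3:**
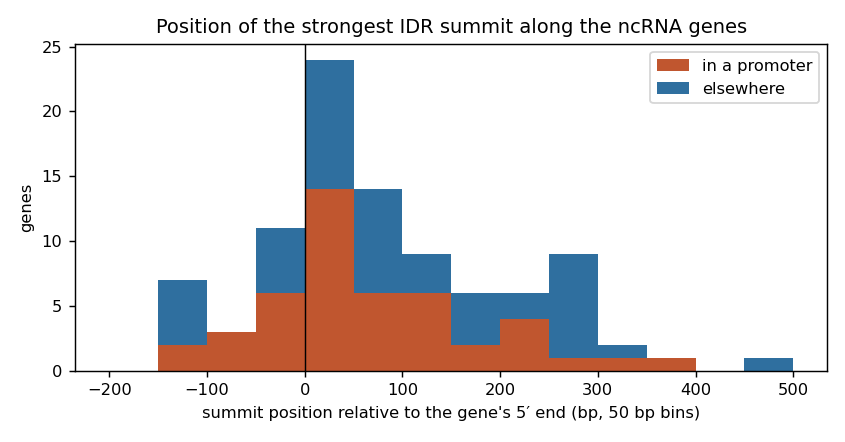
Number of ncRNA genes (n = 93) by the position of their strongest IDR summit relative to the annotated 5′ end, in bp on the gene's strand, stacked for genes in promoters and elsewhere. The median is 57 bp and the highest 458 bp, within the range that the rule of 200 bp around the body allows.

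All 63 peaks had a summit in both replicate lists, with unlike ranks at some. The IDR list was selected by agreement between replicates, so presence in both was largely set in advance. Among the IDR peaks not at these genes, 568 also had a summit in both. Replicate summits could lie away from the IDR summit, by -178 bp at F16A11.7 and 149 bp at T14F9.14 in replicate 1. The median ranks of the 63 peaks were 431 in replicate 1 and 388 in replicate 2. Both ranks were better than 635 for 37 peaks (58.7%), against 55.7% of the remaining peaks. Of the 63 peaks, 36 ranked lower in replicate 1 than in replicate 2, and 26 ranked lower in replicate 2. Among the other 568, 305 ranked lower in replicate 1. The 5 peaks whose ranks differed most were all stronger in replicate 2. Y39A1A.28, in the promoter of Y39A1A.9, ranked 6042 and 388, and F47B10.12, in the promoter of the succinyl-CoA ligase gene suca-1, ranked 5451 and 298. W06F12.7, in an intron of the kinase gene lit-1, ranked 5502 and 462. Y102A11A.15 in igcm-4 ranked 2805 and 452, and T28B11.4 with T28B11.18 in T28B11.1 ranked 2695 and 451. The IDR signals of these 5 peaks, 95.3 to 99.1, are near the lower end of the list, which is 91.8. The largest difference in the other direction was at F26F4.14, in the shared promoter of nhl-2 and tag-340, with ranks 469 and 2007.

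**Figure D4:**
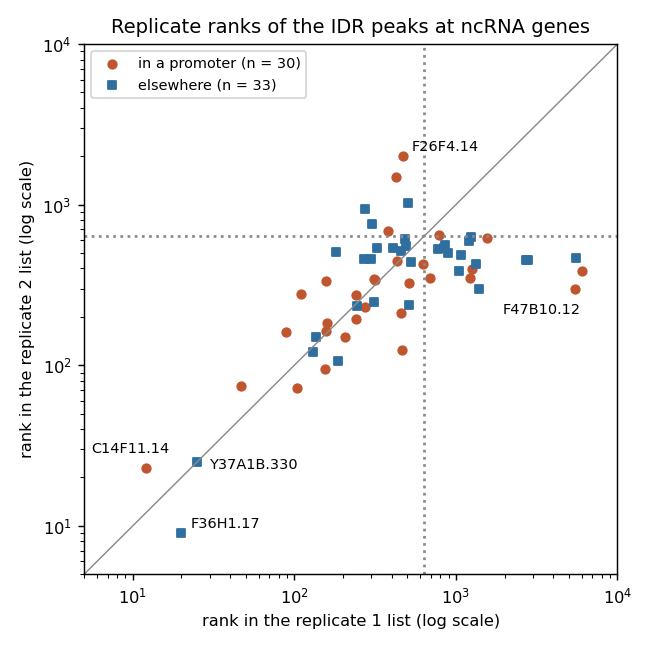
Ranks of the 63 IDR peaks at the studied ncRNA genes in the replicate 1 and replicate 2 lists, both on log scales; dotted lines mark the number of peaks in the IDR list and the solid line equal ranks. The 3 strongest peaks lie at ranks 9 to 25 in both, and a group including F47B10.12 ranks low in replicate 1 alone.

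The strongest peak at any of these genes was at F36H1.17, an 89-base intergenic gene. It had an IDR signal of 544 (rank 9), with 186 (rank 20) in replicate 1 and 350 (rank 9) in replicate 2. The summit was 33 bp inside the body, and the B box word in the printed sequence began 23 bp further downstream. It also lay 74 bp before the microRNA gene mir-51, on the same strand. The nearest protein-coding 5′ end, that of hrg-5, was 3242 bp away.

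C14F11.14 was the strongest of the genes in a promoter window. Its signal was 492 (rank 14), with 212 (rank 12) in replicate 1 and 276 (rank 23) in replicate 2. The summit lay 24 bp inside the body and 172 bp before the start of T13C5.6, and the B box word began 41 bp beyond the summit. Its relatives had weaker peaks. T22B2.12 and the overlapping T22B2.9 had a signal of 120, with ranks 1380 and 299 in replicates 1 and 2. ZK816.8 and ZK816.9 had 111, with ranks 431 and 447. K02D3.5, the name of a pair of genes on opposite strands of the same bases, had no summit in any of the 4 lists, although its plus strand gene carries the word and is 90.9% identical to C14F11.14 over 99 aligned bases. T22B2.12 was 84.9% identical over 119. The windows at the 3 peaks were 92.8% to 97.0% unique at the level of 36-base words, and the part that sequence similarity plays in these values was not tested.

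T28D6.15 and T28D6.10 share a strand in an intron of the tubulin gene tba-7, with T28D6.13 opposite. Their peak ranked 62 in the IDR list, with signals of 138 (rank 47) in replicate 1 and 176 (rank 74) in replicate 2. The summit was 23 bp inside T28D6.15, and its B box word began 36 bp beyond. The body of T28D6.10 starts within the word. K10H10.14 and K10H10.11, upstream of the dehydrogenase gene dhs-8, had a signal of 270 (rank 85), with 95.9 (rank 104) and 179 (rank 72) in the replicates. The B box word of K10H10.14 began 26 bp beyond the summit. In both loci a shorter annotated gene lies within a longer one on the same strand.

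B box words were counted on both strands in the same windows around each summit. GTTCNANNC was present at 8 of the 63 peaks (12.7%), against 93.0% of 187 peaks at tRNA genes, 54.9% of 51 at snoRNA genes and 5.2% of the 327 remaining peaks. In windows at studied genes with no joint summit within 500 bp, the share was 7.27% (295 of 4055). The count of 8 rests on few peaks. It was 5 when the strongest replicate 1 peaks replaced the IDR list, and 13 with a window around the 5′ end in place of the body. The other 3 peaks with the word were at C53A5.18 (signal 116), between ril-1 and the histone deacetylase gene hda-1, T14F9.14 (102), in an intron of peb-1, and the ZK816 pair. A stricter form with a G before and a C after the word was at 5 peaks (7.94%) and in 0.740% of the windows without a summit. Among all studied genes, 190 carried GTTCNANNC on their own strand. An IDR summit lay at 5 of these (2.63%, 0.86% to 6.03%), against 88 of 7075 without it (1.24%). The stricter form was carried by 28 on their own strand. Of these, 4 had an IDR summit (14.3%, 4.03% to 32.7%), against 89 of 7237 without it (1.23%). The 4 were F36H1.17, C14F11.14, T28D6.15 and T22B2.12. Of the other 24, 6 had a joint summit, none ranking better than 11390.

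A second kind lay at or beside genes of other small RNA classes, which the selection rule did not remove. The peak of the 3 genes of Y37A1B (signal 429, rank 27, with 172 and 264 in replicates 1 and 2, rank 25 in both) had its summit 7 bp inside mir-52, as printed above. F09A5.11 (99.6, ranks 1333 and 427) had its summit 97 bp upstream of mir-54, and K01F9.6 (96.4, ranks 505 and 1021) had it 165 bp upstream of mir-80. With mir-51 at F36H1.17, 4 of the 63 peaks lay within 200 bp of a microRNA gene. Taking the strongest peak of each gene, all 261 microRNA genes together had 5 IDR peaks, and 1.92% of them had a summit. Of the mir-51 family (mir-51 to mir-56), the genes mir-51, mir-52 and mir-54 had an IDR summit, mir-53 a joint summit at rank 1174, and mir-55 and mir-56 none in the joint list. The members of this family act redundantly and are together needed for embryonic development. Studied genes within 500 bp of a microRNA gene had an IDR summit in 6 of 65 (9.23%), those within 500 bp of an snRNA gene in 4 of 43 (9.30%), and those away from both in 83 of 7157 (1.16%). These counts are of genes, and rest on few peaks: the 3 genes of Y37A1B share 1 peak, and F58G1.11 and F58G1.12 share another.

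Spliced leader RNAs are short donor RNAs that are trans-spliced to the 5′ ends of worm mRNAs, SL2 to the downstream genes of operons. R12E2.18 and C17C3.23 are annotated opposite to the SL2 RNA genes sls-2.4 and sls-2.2, and are 96.1% identical over 103 bases. R12E2.18 had a signal of 187 (ranks 465 and 124) and C17C3.23 of 146 (ranks 515 and 237). The summit at R12E2.18 also lay in the promoter window of egg-5, 714 bp upstream of its start, and is counted among the peaks in promoters. Both summits lay near the 3′ ends of the SL2 RNA genes, 97 and 103 bp from their 5′ ends. C17C3.22, 97.5% identical to C17C3.23, had no joint summit. The windows were 89.2% and 80.7% unique. F58G1.11 and F58G1.12 (128, ranks 268 and 456) had a summit 5 bp upstream of sup-6, annotated as an snRNA gene. R144.16 (164, ranks 245 and 232), in an intron of the kinesin gene klp-6, overlapped the signal recognition particle RNA gene srpr-2.2, with the summit 5 bp inside the latter, and its window was 60.2% unique.

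The short RNAs with GGGTTA and CTTGAC formed the third kind, recognised only after the peaks were listed. Of 12 such genes of up to 200 bases, 4 had an IDR summit (33.3%, 9.92% to 65.1%), at 3 peaks, against 89 of the other 7253 genes (1.23%). Without the limit on length 14 genes had both words, and the same 4 had a summit (28.6%, 8.39% to 58.1%). The peak of W01D2.7 and W01D2.9, 395 bp upstream of W01D2.3, and that of F08G2.13, 882 bp upstream of F08G2.5, lay in promoter windows and cannot be assigned to the ncRNA or the protein-coding gene. W01D2.7 and W01D2.9 shared a peak between them, with a signal of 228 (rank 124) and 80.9 (rank 154) and 156 (rank 95) in the replicates, 91 bp upstream of W01D2.9. F08G2.13 had 188 (rank 177), with ranks 159 and 184, and its summit 10 bp inside the body. C18C4.17 had 102 (rank 507), with ranks 898 and 503. CD4.18, M163.15 and W01D2.8 had joint summits at ranks 11867, 17088 and 26818. CD4.19, B0361.13, F35E12.11, F08G2.12 and M163.12 had none in any list, nor did yrn-1, the annotated Y RNA gene. F08G2.12 and F08G2.13 lie beside each other, and M163.12 and M163.15 likewise.

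Tandem repeats made the fourth kind. A run of at least 24 bases of a repeat of 1 or 2 bases was in 7 of the 63 windows (11.1%), against 11 of 327 remaining peaks (3.36%) and 1.78% of the windows without a summit. In promoters it was in 1 of 30 windows (3.33%), against 1.31% of the remaining peaks there, and elsewhere in 6 of 33 (18.2%), against 8.16%. F09F3.14 with F09F3.17 (signal 111) had a run of 156 bases, T13H2.7 with T13H2.9 (196), in the promoter of spat-3, 134, and Y55B1BR.7 (143) the run of 110 printed above. Both genes named F16A11.7 (235, ranks 130 and 121), in an intron of ppfr-1 and within the antisense RNA gene anr-20, had 108. F10F2.15 (110) in pfas-1, R11E3.16 (101) in nhr-104 and Y47G6A.35 (235, ranks 186 and 106) in lpd-3 had 98, 60 and 52. Uniqueness of 36-base words in these windows was 24.1% to 84.9%, whereas 49 of the 63 windows were unique throughout, and the part of reads with several matches was not tested. Without these 7 peaks, 83 genes at 56 peaks had an IDR summit.

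**Figure D5:**
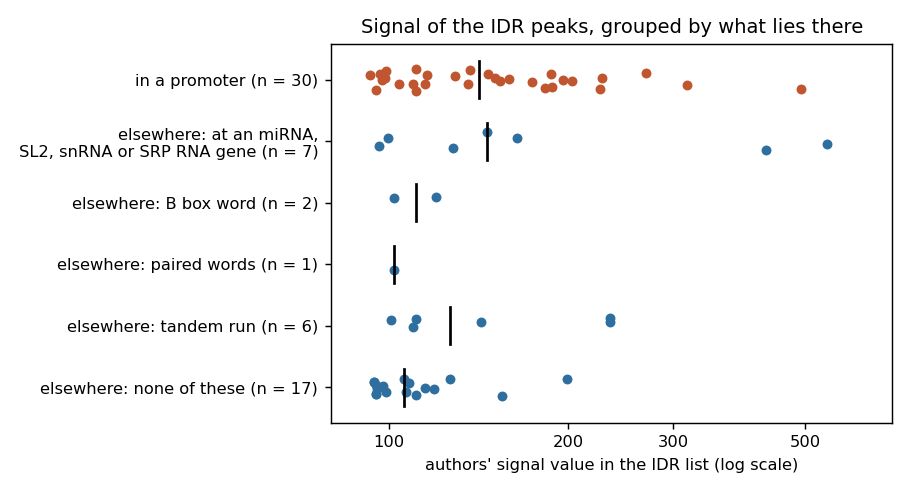
Authors' signal values in the IDR list (log scale) of the 63 peaks, grouped by the first kind that applies from top to bottom; vertical lines are medians (142, 146, 111, 102, 127 and 106). The 2 strongest peaks outside promoters have summits before mir-51 (544) and inside mir-52 (429). Most of the 8 peaks with the B box word, among them F36H1.17 (544) and C14F11.14 (492), fall in rows above the B box row.

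Of the 33 peaks outside promoters, 7 were at microRNA, SL2, snRNA or signal recognition particle RNA genes, 2 more had the B box word, 1 the paired words and 6 a tandem run, counted in that order. The remaining 17 peaks, with 25 genes, had signals of 94.5 to 199 and a median of 106, and 7 ranked better than 635 in both replicates. Y54E10A.26 and Y54E10A.27, in an intron of cogc-1, a Golgi tethering subunit, led them at 199 (ranks 137 and 149). H37A05.5 followed at 155 (312 and 249) and the 4 genes F13D11.22, F13D11.9, F13D11.7 and F13D11.13 at 127 (297 and 461). W05H9.3, the longest of the group at 1512 bases, had 119. F17E5.4 in lin-2 had 115, T28F4.7 in T28F4.1 had 111, F13D12.11 in the G protein beta gene gpb-1 had 108, T05B11.12 in fbxl-5 had 107 and C18H2.7 had 106. The others of lower signal included ZK792.10 (99.1, ranks 1048 and 384), T19F4.5 with T19F4.6 (98.0, ranks 851 and 561) and C02D4.14 with Y15E3A.14 (95.1, ranks 1240 and 629) and K02B9.6 (94.5, ranks 1209 and 597), the name of a pair of genes on opposite strands. All 4 ranked lower in replicate 1.

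Peaks in promoters lay mostly upstream of the protein-coding 5′ end, at a median of 348 bp, and 10 of the 30 lay in the windows of at least 2 genes. Such a peak cannot be assigned to the ncRNA or to the protein-coding gene from these lists. F57B10.17 (226, ranks 89 and 160) lay between dad-1, an oligosaccharyltransferase subunit, and the trehalase gene tre-1. A pair of peaks lay upstream of the 14-3-3 gene ftt-2, at F52D10.12, F52D10.11 and F52D10.7 (203) and at F52D10.9 (147). F26D10.23 (154) lay 348 bp upstream of the Hsc70 gene hsp-1, and F56F3.11 with F56F3.10 (151) between the ribosomal protein gene rps-1 and ifet-1. F54D5.22 (137) lay 200 bp upstream of dnj-13, a DnaJ co-chaperone gene. C24G6.10 (136) lay in the 5′ UTR of nhr-47, 33 bp past its start, and in the window of dnj-19. Y55F3AR.4 (129) lay 189 bp upstream of Y55F3AR.2 and in the window of the chaperonin gene cct-8, and C08F8.13 (97.6) lay 281 bp upstream of F01G4.6 and in that of the prefoldin gene pfd-1. H34C03.18 (183) lay at usp-4, F31F7.6 with F31F7.8 and F31F7.5 (174) at mrck-1 and F59F5.9 (159) at the liprin gene syd-2. W02F12.11 (111, ranks 624 and 426) lay 104 bp upstream of dlst-1, and F47B10.12 lay 126 bp upstream of suca-1. F09E5.18 with F09E5.19 (115, ranks 1225 and 349) lay between F09E5.11 and bmy-1, DL2.2 with DL2.1 (110, ranks 1250 and 396) between dnj-14 and the neuroligin-like gene glit-1, and W06B11.7 with W06B11.9 (104, ranks 381 and 685) upstream of puf-9, a Pumilio-family RNA-binding protein gene.

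The GC-rich word ACGCGC was more frequent at the peaks in promoters than at the rest. On either strand it was in 11 of the 30 windows in promoters (36.7%) and in 3 of the 33 elsewhere (9.09%). The remaining IDR peaks had it in 24.5% of 229 windows in promoters and 9.18% of 98 elsewhere, and windows at studied genes without a summit in 3.75%. CGCAAG was in 4 of 30 (13.3%) and 3 of 33 (9.09%), against 27.1% and 10.2% of the remaining peaks. TACGTA, the core word of vertebrate GMEB binding sites, was in 1 of 63 windows (1.59%), at R03G5.8 upstream of the elongation factor gene eef-1A.2, against 1.45% of windows without a summit.

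By place, the share of genes with an IDR summit was 1.69% (67 of 3956, 1.31% to 2.15%) for genes outside protein-coding bodies. It was 0.711% (16 of 2251, 0.407% to 1.15%) for those overlapping a body on the other strand. The 67 genes lay at 44 peaks and the 16 genes at 16, so these intervals do not test a difference. On the same strand the share was 0.945% (10 of 1058, 0.454% to 1.73%). Genes over 200 bases had 1.74% (24 of 1380, 1.12% to 2.58%) and shorter ones 1.17% (69 of 5885, 0.913% to 1.48%), intervals that overlap. By chromosome the share ran from 1.03% on V (15 of 1459) to 2.12% on III (15 of 706, 1.19% to 3.48%). The X chromosome, with 2325 of the genes, had 31 (1.33%).

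None of the 6 genes with a name of their own had an IDR summit. Of these, tts-2 had the best joint rank, 1524 (signal 68.0, ranks 2921 and 8464 in the replicates), and tts-1, a long noncoding RNA that binds ribosomes in long-lived adults, had rank 19748. The Dicer-binding RNA gene rncs-1 had 16478, lfor-2 11676 and linc-171 24204. The IDR boundary was gradual. The last genes inside were K02B9.6 (94.5) and T24A11.8 with T24A11.7 (93.0). The first outside were R160.8 (91.7, ranks 550 and 1454), F55A8.5 (90.3, ranks 525 and 1310) and M163.17 (88.9, ranks 4901 and 540), followed by WBGene00200237 (88.4) and Y106G6E.7 (88.2).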

How the data were processed

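ChIP-seq peak lists of 2 replicates were deposited on ce11 and ce10, and only the ce11 lists were used. Per the listing deposited with the samples, the authors called peaks against a control alignment for each replicate and for both together, and thresholded the joint peaks by IDR. No label or file used here names the aligner, the peak caller or the threshold of the IDR step. The deposited signal value of each peak (column 7) ranked peaks within a list, and the deposited −log10 q value was not tested further. Genes came from Ensembl 115 and were joined to summits with pandas 2.3.3; members and lists were chosen with earlier results of these data known. A gene had a peak when a summit lay within 200 bp of its body. Words were counted 100 bp to each side of the summit, on both strands; sequence families used blastn 2.17.0 with an E value limit of 0.0001. Without a second group no statistical test was run. Genes named were those at the 20 strongest peaks outside and the 10 strongest inside promoters, at the 5 strongest joint peaks outside the IDR list, at the 5 peaks with the largest rank difference, at B box peaks and at the IDR boundary; others were named after their values were seen. The code joining summits to genes was checked on simulated summits. The 2 replicates are labelled biological replicates.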

Additional observations from a re-analysis of the deposited data

How the results depend on the processing

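No paired analysis was possible because all samples belong to 1 group. Of 100 values recomputed under other settings, 82 stayed within 1.5 times the reported value, or, for the median summit position, within the 7.78 bp SD between single-replicate lists. With the summit inside the body, 48 genes had an IDR summit, 27 in promoters and 21 elsewhere, at 39 peaks, and 23 genes were among the strongest of both replicates. With only the IDR peaks above the list's median signal of 135 there were 41 genes, 28 and 13, at 26 peaks with a median signal of 187, a median position of 28 bp and 4 B box peaks. A window around the 5′ end gave a position of 28 bp and 13 B box peaks, a 100 bp distance a position of 48 bp, and the stricter B box word 5 peaks. Leaving out a replicate gave 85 to 105 genes, 47 to 51 in promoters and 38 to 54 elsewhere, 56 to 73 peaks, positions of 46 to 57 bp and 5 to 8 B box peaks; the 5 came without replicate 2. The repeat and tRNA pseudogene alternatives were chosen after seeing the data; median signals of single replicates have their own scales and were not compared. Depth is unknown, so the absence of a peak is not absence of binding.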
